A study of Mus musculus with 4 samples.

Results

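The ATP-binding cassette (ABC) transporters were followed in 4 cultured mouse melanoma lines. Members were taken by their symbol on the array, which is Abc, a letter from a to g and a number, with Cftr added and the antigen peptide transporters Tap1 and Tap2 left out. This gave 42 probes for 41 genes among the 33012 probes of the array, with 2 probes for Abcg4 and 1 for each of the other genes. B16 is the parental melanoma line of C57Bl6 background, injected as its B16F1 form. Lymph node metastases that followed intradermal injection of B16F1 into the back of C57BL6 mice gave B16-RI, and a second injection, of B16-RI, gave B16-RII from lymph node and B16-RIIL from lung metastases (B16-R2 and B16-R2L in the study's text). Each passaged group is thus a single line. All were grown in medium with 20% fetal bovine serum for up to 10 passages. The labels give 1 array per line, with RNA pooled over passages, and no engineered allele or drug treatment. The study describes duplicate cultures, but second arrays in the deposited table match no labelled sample and were not used. Differences between lines therefore have no replicate check here, and no test between lines was run.

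ABC proteins bind and hydrolyse ATP through a conserved nucleotide-binding domain and most of them move a substrate across a membrane. Pumps such as P-glycoprotein (Abcb1a and Abcb1b in the mouse), Abcg2 and Abcc1 export drugs and metabolites, and are known for drug resistance in tumours. Other members carry cholesterol and phospholipids, load fatty acids into peroxisomes or serve mitochondria, and the proteins of subfamilies E and F have no membrane domain and act in translation. Abcb5 and Abcg2 are known as markers of tumour-initiating cells, in melanoma in the case of Abcb5. No probe carried the symbol Abcb5, which was not analysed here.

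A probe was called detected when its signal-to-noise ratio (S/N) was at least 3 and its error flag at most 5000. Of all probes, between 42.0% and 45% were detected per array, and of the 42 ABC probes 15 were detected on B16, 15 on B16-RI, 19 on B16-RII and 14 on B16-RIIL. On all 4 arrays 10 ABC genes were detected, 21 were detected on at least 1, and 20 on none. Melanocyte markers were detected on every array for the 5 that had a probe (Tyr, Tyrp1, Dct, Mitf and Si, now Pmel). Of markers of other cell types, the 3 endothelial genes were detected on no array. By the brightest probe, 1 of 4 fibroblast genes (Col1a1) and 1 of 4 macrophage genes (Csf1r) were detected on at least 1 array. So were 1 of 3 lung epithelial genes (Scgb1a1) and 2 of 3 leukocyte genes (Cd79a and Cd3g). Cd79a was detected on all 4 arrays with an S/N of at least 41.6, and Cd3g on B16-RIIL alone with an S/N of 3.77. The values below are the normalized signal deposited by the authors, a brightness with no absolute unit, so a signal is compared only with the same probe on another array. These values carry an offset between arrays. Over the 11604 probes with detection throughout, the median log2 difference from B16 was 0.21 for B16-RI, 0.41 for B16-RII and 0.22 for B16-RIIL. The authors scaled the probes in 2 sets, and the offsets were 0.39, 0.41 and 0.46 for one and 0.07, 0.42 and -0.01 for the other. Calls above or below B16 required a 2-fold difference and detection on the brighter array. Where the dimmer array did not detect the probe, the fold is a nominal lower bound and is written as at least. It was taken over the undetected signal, or over the lowest detected signal of that array where that was higher. It is not a bound at the probe's own detection limit.

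**Figure D1:**
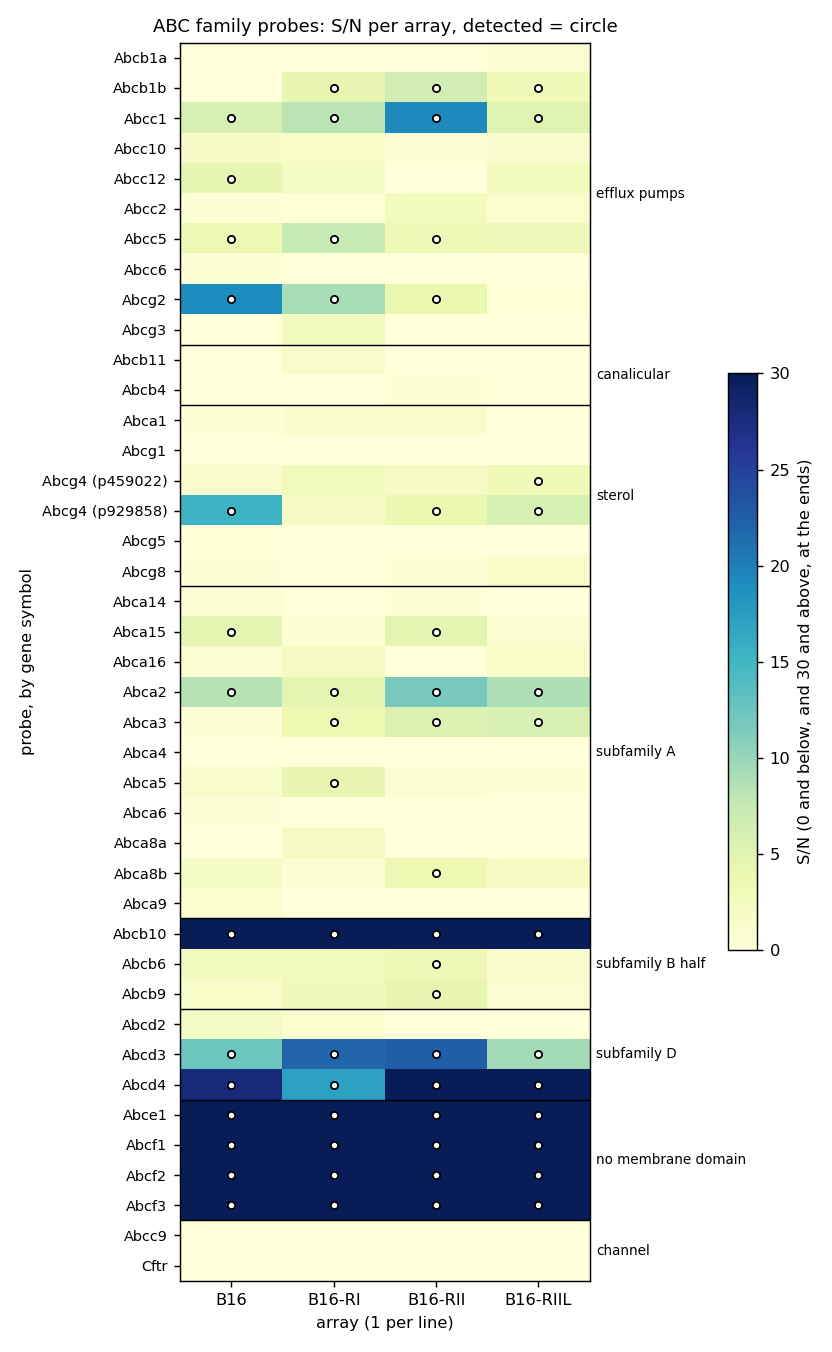
S/N of 41 of the 42 ABC probes (rows, by gene symbol and role; 1 is not shown) on the 4 arrays (columns), with a circle where a probe was detected. The proteins without a membrane domain, Abcb10, Abcd3, Abcd4, Abca2 and Abcc1 were detected on every array, Abcg2 was detected on each array but B16-RIIL, and the channel and canalicular members were detected on none.

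In total 11 of the 42 ABC probes, of 10 genes, were called above or below B16 in at least 1 passaged line, or 26.2% against 20.2% of all probes. Among probes detected on at least 1 array the shares were 50% for the 22 ABC probes and 35.7% for all probes. On B16-RI, 3 ABC probes were above B16, where 4.95% of all probes were, and 2 were below, where 4.55% were. On B16-RII, 5 were above (6.51% of all probes) and 3 below (3.79%). On B16-RIIL, 3 were above (6.42% of all probes) and 2 below (4.25%). Over probes detected on either array of the comparison the background was 10.2% above and 9.34% below on B16-RI, 13.1% and 7.6% on B16-RII, and 12.7% and 8.41% on B16-RIIL. The ABC shares on that base were 16.7% and 11.1% of 18 probes, 25% and 15% of 20, and 16.7% and 11.1% of 18. The 3 comparisons share the B16 array. Taken in the order B16, B16-RI, B16-RII and B16-RIIL, in which the last 2 lines both stem from B16-RI, Abcg2 was the ABC probe that became lower with every step by at least 2-fold in all and was detected on B16 (0.921% of all probes). Abca3 was the one that became higher by at least 2-fold in all and was detected on B16-RIIL (2%). In the deposited values Abcd4 also became higher with every step, by 1.72-fold in all. Its first step depended on the scaling. On B16-RI it lay below B16 by quantile normalization (-0.11 log2 units), 75th percentile scaling (-0.05) and centred probe sets (-0.30). Abca3 and Abcb1b were above B16 on all 3 passaged arrays, as 1.14% of all probes were. They were also the ABC probes that all passaged arrays detected and B16 did not, as held for 1.4% of all probes.

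**Figure D2:**
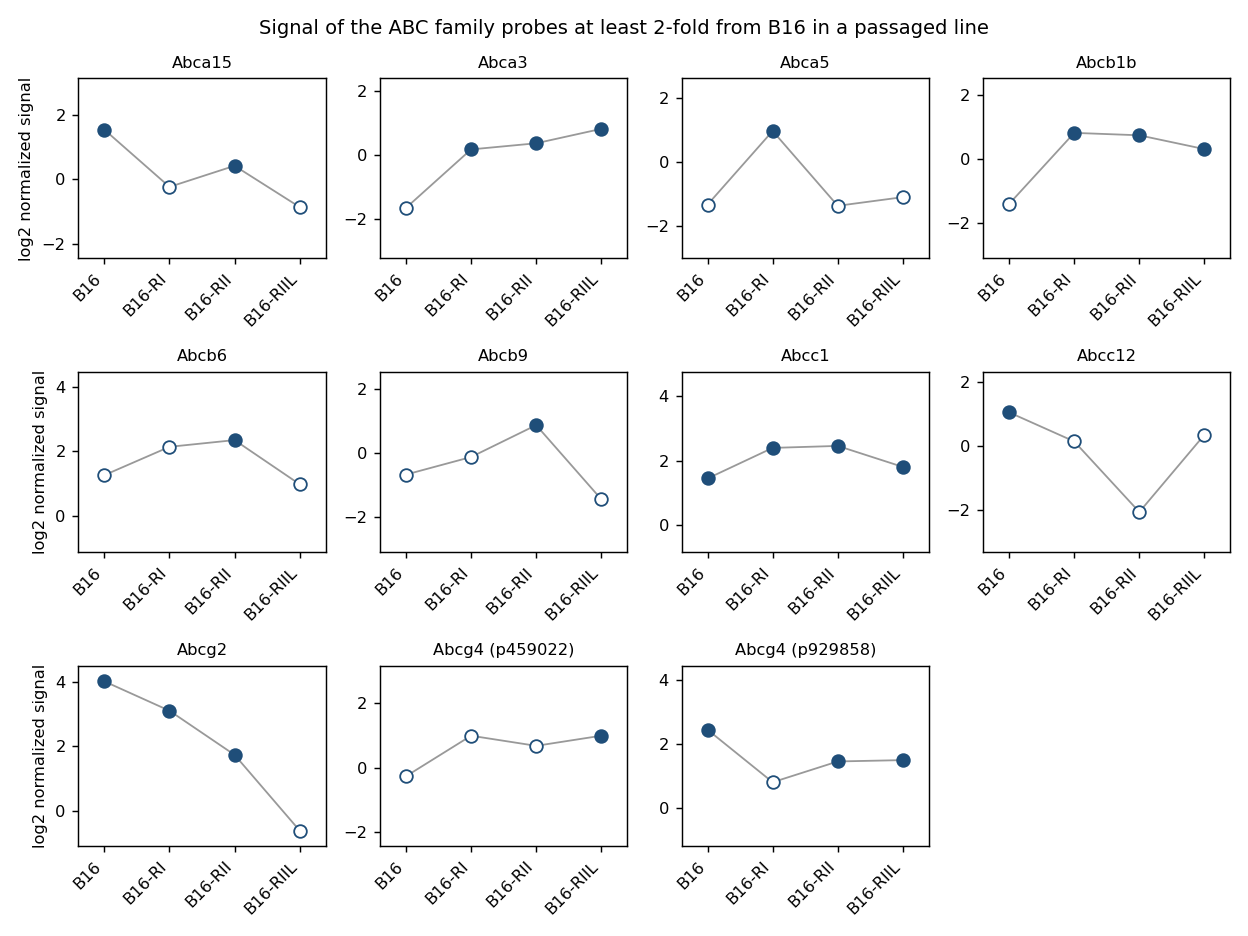
Log2 normalized signal of the 11 ABC probes called above or below B16, on the 4 arrays, each panel spanning the same number of log2 units. Filled points were detected and open points were not, and the joining lines only guide the eye. Abcg2 goes down from 4.02 to 1.74 on B16-RII and is not detected on B16-RIIL, whereas Abca3 and Abcb1b are detected on the passaged arrays and not on B16.

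Among the efflux pumps, Abcg2 was 4.88-fold and at least 25-fold lower in the lines of the second injection, while Abcb1b was higher in every passaged line. Abcg2, the breast cancer resistance protein, exports drugs, urate and porphyrins and marks the side population of stem cells. Its single probe read 16.3 in B16, 8.63 in B16-RI, 3.33 in B16-RII and 0.65 in B16-RIIL. The S/N was 19.0, 9.08, 3.99 and 0.12 on the same arrays, so that it was detected on the first 3 and was at background on B16-RIIL. Relative to B16 the signal was 1.88-fold lower on B16-RI, 4.88-fold lower on B16-RII and at least 25-fold lower on B16-RIIL. B16-RII was 2.59-fold below B16-RI, and the lung line B16-RIIL was at least 5.12-fold below the lymph node line B16-RII. Over 5 scalings of the arrays the decrease ranged from 4.40-fold to 6.57-fold on B16-RII and from at least 24-fold to at least 35.9-fold on B16-RIIL. On B16-RI it ranged from 1.88-fold to 2.48-fold and passed 2-fold under 3 of the 5 scalings. The value on B16-RIIL rests on a signal at background from 1 probe on 1 array.

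RefSeq gives 3 promoter windows for Abcg2 on build GRCm38.p6, each of 300 bases from 250 before a transcription start to 50 after it. They are shown because Abcg2 was the member at least 2-fold lower along that order of lines, and because its starts lie apart on chromosome 6. Capitals mark GC boxes (GGGCGG), the core of the M-box bound by Mitf and related factors (CATGTG), E-boxes (CACGTG) and antioxidant response cores (TGACNNNGC) on either strand.
Abcg2 window 1 (chr6:58584283-58584582, plus strand): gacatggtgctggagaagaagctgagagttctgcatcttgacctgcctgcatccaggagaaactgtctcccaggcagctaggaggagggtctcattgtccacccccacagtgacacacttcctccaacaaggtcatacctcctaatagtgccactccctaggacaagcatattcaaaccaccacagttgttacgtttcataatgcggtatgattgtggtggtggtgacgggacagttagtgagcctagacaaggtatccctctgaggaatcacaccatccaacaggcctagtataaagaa
Abcg2 window 2 (chr6:58596422-58596721, plus strand): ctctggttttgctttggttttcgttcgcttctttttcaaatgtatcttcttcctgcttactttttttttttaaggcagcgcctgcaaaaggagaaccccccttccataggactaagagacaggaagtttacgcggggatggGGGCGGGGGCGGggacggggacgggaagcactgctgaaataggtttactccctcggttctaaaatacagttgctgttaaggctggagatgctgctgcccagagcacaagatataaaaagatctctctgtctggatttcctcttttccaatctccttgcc
Abcg2 window 3 (chr6:58640296-58640595, plus strand): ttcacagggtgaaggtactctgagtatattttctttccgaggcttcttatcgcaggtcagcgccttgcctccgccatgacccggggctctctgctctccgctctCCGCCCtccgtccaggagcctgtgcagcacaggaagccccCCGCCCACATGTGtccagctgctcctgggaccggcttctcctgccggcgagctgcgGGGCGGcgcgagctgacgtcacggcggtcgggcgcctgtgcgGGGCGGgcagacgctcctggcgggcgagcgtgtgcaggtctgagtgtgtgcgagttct
The first window held none of these motifs, the second held 2 GC boxes, and the third held 4 GC boxes and 2 overlapping matches to CATGTG on opposite strands. In RefSeq as a whole, 35.7% of 32851 promoter windows held a GC box, 14.2% CATGTG, 7.15% CACGTG and 12.4% the antioxidant response core, on either strand with overlaps counted. The deposited signals come from 1 probe and do not tell which start was used. A match describes the letters and not binding.

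Abcb1b encodes P-glycoprotein together with Abcb1a. The Abcb1b probe read 0.38 in B16, 1.76 in B16-RI, 1.67 in B16-RII and 1.24 in B16-RIIL. It was not detected on B16, with an S/N of -0.35, and was detected on the passaged arrays with an S/N of 4.30, 6.54 and 3.07. The passaged lines were thus at least 4.63-fold, 4.39-fold and 3.26-fold above B16, and at least 3.52-fold, 3.27-fold and 2.28-fold under the scaling that gave the lowest value. Among the passaged arrays the signals lay within 1.42-fold of each other. The paralogue Abcb1a read 0.53, 0.45, 0.47 and 0.45 and was not detected on any array, with a highest S/N of 0.66, and its spot on B16 carried an error flag above the limit. These genes are paralogues of related sequence, and cross-hybridization between their probes was not tested. The promoter window of Abcb1b is shown as a member with a higher signal in each passaged line, marked in the same way.
Abcb1b (chr5:8797897-8798196, plus strand): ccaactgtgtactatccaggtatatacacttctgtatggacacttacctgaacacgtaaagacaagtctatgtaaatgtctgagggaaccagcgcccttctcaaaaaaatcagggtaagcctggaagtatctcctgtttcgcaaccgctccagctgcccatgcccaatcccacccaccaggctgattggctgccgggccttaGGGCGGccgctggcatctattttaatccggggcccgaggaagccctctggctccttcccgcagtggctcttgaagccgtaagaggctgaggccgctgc
It held 1 GC box and none of the other motifs marked. It also held 2 matches to the CCAAT box (CCAAT), which is not in capitals and was found in 37.4% of all windows.

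Abcc1, the multidrug resistance protein that exports glutathione conjugates and leukotrienes, was detected on every array. In B16 it read 2.72, against 5.26 in B16-RI, 5.49 in B16-RII and 3.49 in B16-RIIL. It was 1.93-fold, 2.02-fold and 1.28-fold above B16, so that only B16-RII passed 2-fold, and there under 1 of the 5 scalings. Relative to the median of its own probe set the values were 1.93-fold, 1.5-fold and 1.28-fold. Abcc5, an exporter of cyclic nucleotides, had a signal of 1.80, 2.05, 0.98 and 1.65 and was not detected on B16-RIIL. It was 1.84-fold below B16 on B16-RII, short of 2-fold in the deposited values, and it passed 2-fold under the 4 other scalings. Abcc12 was detected on B16 alone, at 2.06 with an S/N of 4.42, and had signals of 1.10, 0.24 and 1.27 on the passaged arrays, which is at least 5.57-fold lower on B16-RII. The remaining pumps on the array, Abcc2, Abcc6, Abcc10 and Abcg3, were detected on no array, with S/N values up to 2.63. The bile canalicular transporters Abcb4 and Abcb11, which export phosphatidylcholine and bile salts from hepatocytes, were not detected either, with S/N values up to 1.35.

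Of the cholesterol and phospholipid transporters, Abca1 and Abcg1, which load cholesterol onto lipoproteins in response to liver X receptors, were not detected on any array. Abca1 read 0.61 in B16, 0.84 in B16-RI, 0.46 in B16-RII and 0.60 in B16-RIIL, with a highest S/N of 1.16. Abcg1 read 1.37, 2.67, 1.09 and 1.52 with an S/N below 0 on all 4 arrays, so that these signals are background. Abcg5 and Abcg8, which form the sterol exporter of gut and liver, were not detected either. Abcg4, an Abcg1 relative best known from the nervous system, was measured by 2 probes that differed in direction. The first Abcg4 probe (p929858) read 5.43 in B16, 1.75 in B16-RI, 2.74 in B16-RII and 2.82 in B16-RIIL, and was not detected on B16-RI. It was at least 3.10-fold below B16 on B16-RI, 1.98-fold below on B16-RII and 1.93-fold below on B16-RIIL. The decrease passed 2-fold under 4 of the 5 scalings on B16-RII and under 2 on B16-RIIL. The second Abcg4 probe (p459022) read 0.83, 1.99, 1.60 and 1.99 and was detected on B16-RIIL alone with an S/N of 3.12, at least 2.40-fold above B16. The S/N of the first probe on B16 was 15.3, so this probe stood clear of the limit and the second did not. No direction is given for Abcg4 as a gene.

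Subfamily A holds large lipid transporters, and 5 of its 11 genes other than Abca1 were detected on at least 1 array. Abca3 moves phospholipids into the lamellar bodies of lung alveolar cells and is found at lower levels in other tissues. The Abca3 probe read 0.32 in B16, 1.13 in B16-RI, 1.29 in B16-RII and 1.76 in B16-RIIL, with an S/N of 0.58, 3.55, 5.35 and 5.78. Abca3 was thus not detected on B16. The passaged lines exceeded it by at least 3.53-fold (B16-RI), 4.03-fold (B16-RII) and 5.50-fold (B16-RIIL). The lymph node lines and the lung line both had it, and B16-RIIL lay 1.36-fold above B16-RII. The surfactant genes Sftpc and Sftpd of the same lung cells were not detected on any array, and Scgb1a1 was detected on B16-RIIL alone with a signal of 2.59. The summed signal of these 3 lung genes was 2.30 on B16 and between 2.05 and 3.27 on the passaged arrays. The promoter window of Abca3 is shown for comparison with that of Abcb1b, as the other member above B16 in each passaged line.
Abca3 (chr17:24351773-24352072, plus strand): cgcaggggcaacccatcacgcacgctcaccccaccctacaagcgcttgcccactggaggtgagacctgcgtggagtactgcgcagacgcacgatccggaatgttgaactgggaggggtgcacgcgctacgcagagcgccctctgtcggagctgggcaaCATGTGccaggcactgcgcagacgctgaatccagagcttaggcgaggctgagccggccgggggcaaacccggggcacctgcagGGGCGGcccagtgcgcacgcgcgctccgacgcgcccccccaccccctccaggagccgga
It held 1 GC box and 1 match to CATGTG, so that the GC box was the one marked motif found in the windows of both genes, as it was in 51.3% of the 39 windows of the family.

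The other changes in subfamily A were at the edge of detection, as was that of Abca3 on B16-RI (S/N of 3.55). Abca15 read 2.92 in B16, 0.85 in B16-RI, 1.34 in B16-RII and 0.55 in B16-RIIL and was detected on B16 and B16-RII, with an S/N of 4.37 and 4.47. It was at least 3.44-fold, 2.18-fold and at least 5.31-fold below B16. Abca5, a lysosomal member, was detected on B16-RI alone with a signal of 1.96 against 0.40 on B16, which is at least 4.90-fold, and read 0.39 on B16-RII and 0.47 on B16-RIIL. Abca8b was detected on B16-RII alone, at least 1.70-fold above B16. Abca2, which is known from myelin and the lysosomal membrane, was detected on every array at 3.71, 2.45, 3.57 and 3.82, and was 1.51-fold lower on B16-RI. All other subfamily A genes on the array (Abca4, Abca6, Abca8a, Abca9, Abca14 and Abca16) stayed under the S/N limit.

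Of the organelle members of subfamily B, Abcb10, a transporter of the inner mitochondrial membrane needed for haem synthesis, was detected with an S/N of at least 59.6 on each array. Its signal of 24.4 on B16 compared with 24.9 on B16-RI, 33.2 on B16-RII and 25.1 on B16-RIIL. Relative to its own probe set it was within 1.02-fold of B16 on each passaged array. Abcb6, a porphyrin transporter that is also found in lysosomes and melanosomes, was detected on B16-RII alone, with signals of 2.40, 4.42, 5.11 and 1.97. It was at least 2.13-fold above B16 on B16-RII, and passed 2-fold under 3 of 5 scalings. Abcb9, a lysosomal peptide transporter, was also detected on B16-RII alone, with signals of 0.63, 0.92, 1.83 and 0.37. It was at least 2.90-fold above B16 there and at least 4.95-fold below that level on B16-RIIL. The S/N of Abcb6 and Abcb9 on B16-RII was 3.42 and 4.32, close to the limit of 3.

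The peroxisomal and translational members that were detected differed from B16 by less than 2-fold. Abcd3, a peroxisomal transporter of branched and dicarboxylic acids, read 13.3 in B16, 16.4 in B16-RI, 16.3 in B16-RII and 13.3 in B16-RIIL. Relative to its own probe set it was at 0.94, 0.92 and 0.70 times B16 in the 3 passaged lines. Abcd4, which works in lysosomal release of vitamin B12, read 12.9, 13.8, 17.4 and 22.2, a 1.72-fold difference between B16-RIIL and B16 that came to 1.2-fold relative to its own probe set. Abcd2 was not detected. Of the proteins without a membrane domain, Abce1, which splits ribosomes after termination, read 173 on B16, 276 on B16-RI, 282 on B16-RII and 228 on B16-RIIL. Abcf1, Abcf2 and Abcf3, which act in translation and its control, lay between 1.07-fold and 1.72-fold above B16. Relative to their own probe sets these 4 genes ranged from -0.13 to 0.28 log2 units, and none reached 2-fold in any comparison.

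The channel members of the family were at background. Cftr, the chloride channel of epithelia, read 0.33 in B16, 0.64 in B16-RI, 0.36 in B16-RII and 0.41 in B16-RIIL, with an S/N below 0 on every array. Abcc9, the sulfonylurea receptor of cardiac and vascular potassium channels, had a highest S/N of 0.04.

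The 10 ABC genes with detection throughout had a median log2 difference of 0.24 for B16-RI, 0.44 for B16-RII and 0.23 for B16-RIIL, which is within 0.035 of the offset of all such probes. In the deposited values 9 of the 10 lay above B16 in each line, and with quantile normalization 5, 6 and 5 did. The extremes among the 10 genes were Abca2 at -0.60 and Abcc1 at 0.95 on B16-RI, and Abca2 at -0.06 and Abcc1 at 1.01 on B16-RII, and the highest on B16-RIIL was Abcd4 at 0.78. Centred on their own probe sets, 7, 6 and 7 of the 10 genes lay above B16, with medians of 0.10, 0.01 and 0.03. The 2-fold differences in the family, apart from Abcc1, were in probes that at least 1 array did not detect.

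**Figure D3:**
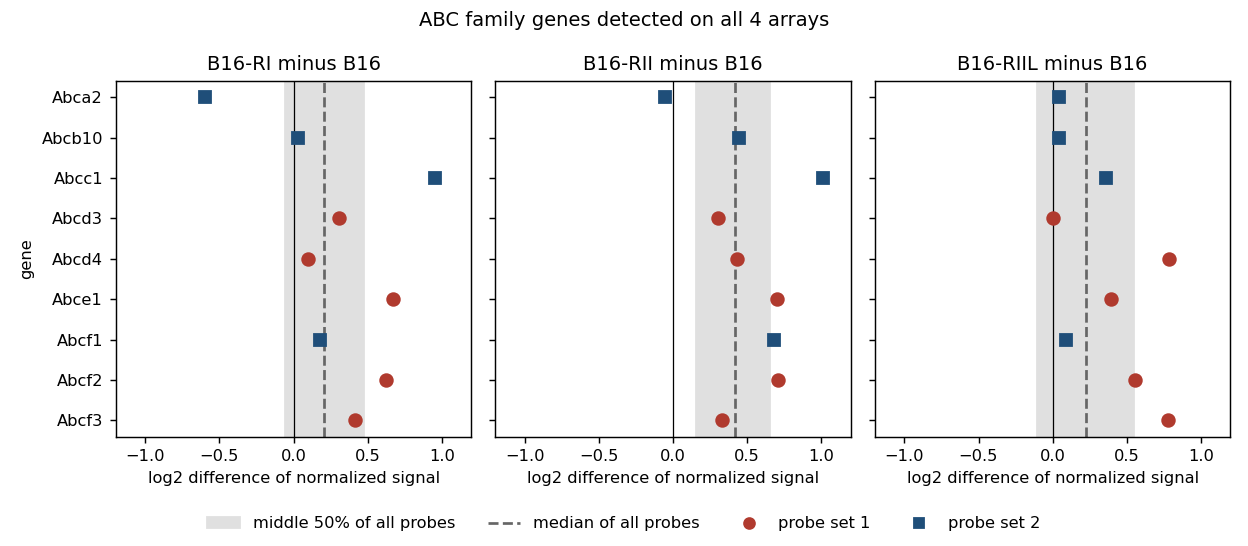
Log2 difference from B16 of 9 of the 10 ABC genes detected on all 4 arrays, in each passaged line, with the median (dashed) and the middle 50% (grey) of all 11604 probes detected on all 4 arrays. Circles and squares mark the 2 probe sets that were scaled separately, and Abcc1 is the highest gene on B16-RI and B16-RII.

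The genes that regulate or accompany the transporters were looked at in lists. Of 17 xenobiotic sensors and conjugating enzymes on the array, 3 were above B16 on B16-RI, 5 on B16-RII and 6 on B16-RIIL, and 1 was below on each. Of the 17, 16 were detected on at least 1 array. Over all probes 4.95%, 6.51% and 6.42% were above, and over those detected on either array 10.2%, 13.1% and 12.7%. The shares below B16 were 4.55%, 3.79% and 4.25% of all probes, and 9.34%, 7.6% and 8.41% of those detected on either array. The median of the 13 detected on every array was 0.46, 0.49 and 0.94 log2 units above B16, beside an offset of 0.21, 0.41 and 0.22 for all probes so detected. Of the 13, 8 were in the set of probes with the larger offsets on B16-RI and B16-RIIL. With the offset of its own set taken from each gene, the median came to 0.07, 0.08 and 0.47. Gsta4, which conjugates lipid aldehydes with glutathione, read 2.59 in B16, 8.94 in B16-RI, 18.7 in B16-RII and 20.6 in B16-RIIL, or 3.45-fold, 7.24-fold and 7.94-fold. Mgst1, the microsomal glutathione transferase, was the gene below B16, with 17.8, 2.37, 7.10 and 2.01, or 7.49-fold, 2.50-fold and 8.83-fold lower. Nfe2l2, the activator of antioxidant genes and of several efflux pumps, was not detected on B16 and was at least 3.97-fold and 5.59-fold above it on B16-RI and B16-RII, and at least 1.93-fold above it on B16-RIIL, which was short of a call. The quinone reductase Nqo1 was 2.52-fold above B16 on B16-RIIL. Gclc, Gsr and Hmox1 were between 2.08-fold and 2.38-fold above B16 where called, and none of these calls held under all 5 scalings. The nuclear receptors Nr1i2 on B16-RII and Nr1i3 on B16-RIIL were each detected on that array alone, at least 4.90-fold and 3.39-fold above B16.

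Of 11 genes of liver X receptor signalling and sterol handling, 1 was above B16 on B16-RI and 1 on B16-RII. Nr1h3, the liver X receptor alpha, was the gene called below. It was detected on B16 alone, with an S/N of 4.92, and was at least 3.05-fold lower on B16-RI and 2.70-fold lower on B16-RIIL. Of 10 genes of haem and iron-sulfur cluster synthesis, only Uros, a haem pathway synthase, was called. It was at least 5.88-fold above B16 on B16-RI and 5.50-fold on B16-RII, with an S/N of 3.23 and 6.14. It was not detected on B16 or B16-RIIL. Of 9 genes of peroxisome assembly and beta-oxidation, only Acox3 was called by the brightest probe. It was detected on B16 alone with an S/N of 3.27, at least 2.96-fold and 2.34-fold above B16-RI and B16-RII. Of the 4 channel partners 3 were detected on at least 1 array, and of the 9 uptake carriers of organic ions 2 were, so that few could be called. None was. Beside the counts of all these lists, between 3.79% and 6.51% of all probes were called in each direction and line. Over probes detected on either array these shares were between 7.6% and 13.1%.

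**Figure D4:**
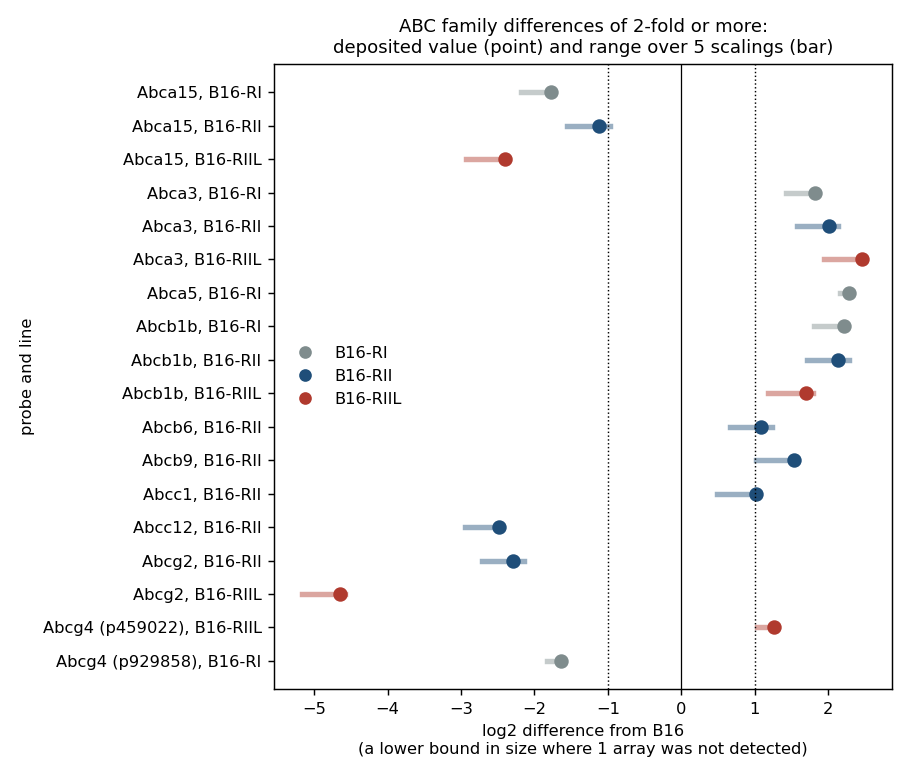
The 18 ABC differences of at least 2-fold from B16, by probe and passaged line. Points give the log2 difference in the deposited values and bars its range over 5 scalings of the arrays, with dotted lines at 2-fold. Where either array did not detect the probe, the point is a nominal lower bound in size, not one at the probe's own detection limit. Of the 18, 15 stayed past 2-fold under every scaling, and the exceptions are Abcc1, Abcb6 and Abca15 on B16-RII.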

How the data were processed

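RNA of the 4 lines was labelled with digoxigenin and read by chemiluminescence on one-colour Applied Biosystems oligonucleotide arrays. The authors deposited a raw intensity, a normalized intensity, which is the raw intensity divided by 1 of 2 constants per array, a signal-to-noise score and a flag score for 33012 probes. For B16 these constants came to 372 and 389, for B16-RII to 588 and 488. The study's methods name quantile normalization, which the deposited values do not show. In all 44 columns were not used. Of these, 30 belong to second arrays that no labelled sample matches, and 14 are log2 values or ratios the authors derived.

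Log2 of the deposited normalized intensity was taken without a pseudocount. Detection limits (S/N of 3, flag of 5000) were those of the study's methods, applied to single arrays. Undetected signals were replaced by the lowest detected signal of their array where that was higher. Values on every array are given for members detected and at least 2-fold from B16, and for a fixed set of known transporters. Members, roles, partner lists, markers and motifs were chosen with earlier results of these data known. Counts cover every member and listed gene, but the values of a few genes are not reported here. All 41 symbols matched the RefSeq gene table of GRCm38.p6, and 33 had a promoter window. Alternatives were quantile normalization, median and 75th percentile scaling of the raw intensities, centring of each probe set, and other detection and size limits. The calling rules were tested on simulated arrays. The study describes duplicate cultures of each line. Precision is limited here by the use of the 1 array per line that the labels identify, which also leaves no replicate to omit. Python 3.11.15, numpy 2.4.6, pandas 2.3.3 and matplotlib 3.10.9 were used.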

Additional observations from a re-analysis of the deposited data

How the results depend on the processing

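Over 11 results for the family, 50 of 79 alternative values stayed within 1.5 times for a count or 0.1 log2 units for a median. None of the 18 called probe differences changed sign under another scaling. Sign was not compared for the family results or for uncalled probes. Among these, Abcd4 on B16-RI changed sign, as did the family median relative to all probes on B16-RIIL (0.003 as deposited, -0.02 with median scaling). Causes of the changes below were not tested. On B16-RI the 3 probes above and 2 below B16 became 4 below with quantile normalization and 4 with 75th percentile scaling. On B16-RII the 5 above and 3 below became 3 above with 75th percentile scaling and 3 with centred probe sets, and 5 below with quantile normalization, 5 with 75th percentile scaling and 5 with centred probe sets. With an S/N of at least 5, 0 were above and 1 below on B16-RI, 3 above and 1 below on B16-RII, and 1 above and 1 below on B16-RIIL. At that limit Abca3 was no longer above B16 on B16-RI, nor Abcb1b on B16-RI and B16-RIIL. With detection on all 4 arrays, which leaves 10 probes by construction, 1 probe (Abcc1 on B16-RII) was above and 0 were below in any line, and 0 became higher or lower along all 4 lines by at least 2-fold in all. At 1.5-fold, 6 were above and 5 below on B16-RI, 9 and 5 on B16-RII, and 5 and 4 on B16-RIIL. At that limit 2 (Abca3 and Abcd4) became higher along all 4 lines in the deposited values. At 3-fold, 2 were above on B16-RII. No paired analysis was possible because 1 labelled array per line was used and nothing pairs the lines. Detection limits these results, since probes near an S/N of 3 set most of the counts.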

Other observations

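RefSeq lists 51 genes whose current symbol fits the family, of which 10 had no probe under that symbol. For 3 of them a probe carried an older name. The probe of Abcb8, a mitochondrial member, was detected on all 4 arrays, reading 5.76 in B16, 6.85 in B16-RI, 7.36 in B16-RII and 9.50 in B16-RIIL, or 0.25, 0.35 and 0.72 log2 units above B16. The probe of Abca12 was detected on B16 alone with an S/N of 3.07, and that of Abcc8, the sulfonylurea receptor, was detected on no array.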
